A study of Drosophila melanogaster with 42 samples.

Results

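The regions described here are the 1047 most accessible of 20935 tested regions of fruit fly embryo chromatin, the top 5% by mean count. Accessibility was measured by ATAC-seq, in which the transposase Tn5 inserts adapters into open DNA. The regions are 2114 bp wide, and they were chosen by the mean normalised count that the authors' deposited gd7 table gives for each region. The study holds 42 libraries of hand-sorted embryos in 14 groups of 3. Embryos of the wild-type stock Oregon-R (OreR), of zld- and of gd7 came from 4 windows after egg laying, which ran from 1 h to 1.5 h, 1.5 h to 2 h, 2 h to 2.5 h and 2.5 h to 3 h, while cic6 embryos came from the third and the fourth of them. A library held 400, 100, 40 and 40 embryos in these windows, in that order. How the zld- embryos were made is not in the labels, although the names of deposited files refer to RNAi and depletion. They give no shared stock or background for the genotypes, so genotype and stock cannot be told apart. Nothing in the labels says that the libraries of a group came from separate cages, so p-values measure the spread between these libraries. Embryos were used whole, so a smaller share of nuclei with an open region and less opening per nucleus cannot be told apart.

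Before and during the start of zygotic transcription, regulatory DNA of the fly embryo becomes accessible. Zelda, the product of zld, is a maternal pioneer factor that binds early enhancers and promoters. The gene gd encodes a maternal protease upstream of the Dorsal gradient, and Capicua, the product of cic, is a maternal repressor relieved by terminal Torso signalling. The most accessible regions of such embryos include promoters of broadly active genes, early enhancers and repeated genes.

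The lowest mean count among the chosen regions was 2708 and the highest 29981, with a median of 3302 against 860.2 for all other regions. Only 33 regions exceeded 10000 and 104 exceeded 5000. Just inside the threshold were regions at hth (2710), SmD3 (2709) and woc (2708), and just outside it were regions at scrib (2707), qkr58E-2 (2707) and mri (2705). Mean counts in the gd7 table come from OreR and gd7 libraries, so gd7 differences are given as a description. The zld- and cic6 comparisons share the OreR libraries with that table. Of the 1047 regions, 853 were also in the top 5% by the zld- table and 899 by the cic6 table.

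Repeated genes headed the ranking. All 23 tested regions at the histone genes, which encode the core and linker histones in a tandem array, were among the 1047. They lay on chr2L:21418198-21541725 (dm6), where RefSeq annotates 111 histone genes, with mean counts from 6089 to 29981. The highest of all, 29981, was at His4:CG33883, followed by 29280 at His4:CG31611. Of 7 tested regions at ribosomal RNA genes or pseudogenes on X, 6 were members, the highest with 27714. A region at chr3L:25132995-25135108, 6824 bp from UQCR-11, ranked 10 with a mean count of 21271. Counts at near-identical copies are uncertain, because the files do not say how reads matching several copies were placed.

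**Figure D1:**
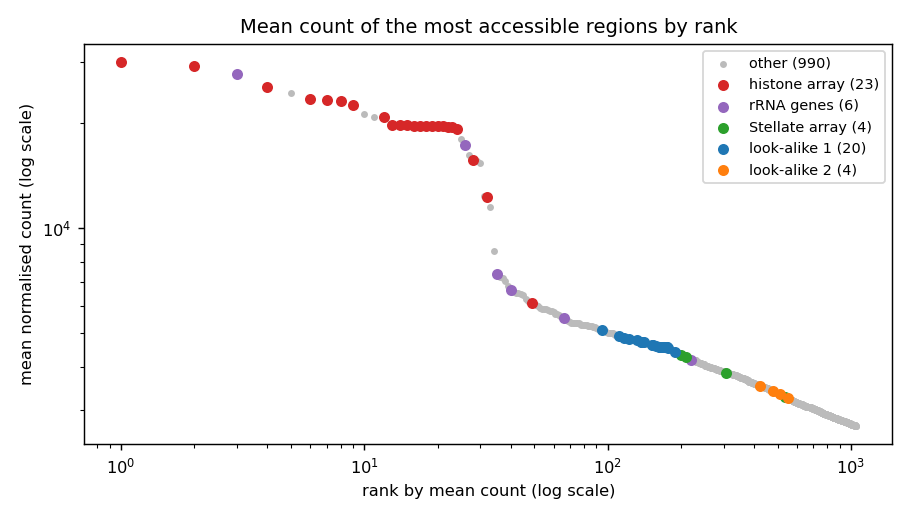
Mean normalised count of each of the 1047 regions (log scale) against its rank (log scale), coloured by class. The histone regions (23, red) reach 29981, and most other regions lie below 5000.

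Over all 1047 regions, gene ends and mapped enhancers were more frequent than among the other tested regions. The midpoint lay within 500 bp of an end of a protein-coding gene in 39.5% of the regions and in 20.2% of all others. A protein-coding gene body was overlapped by 86.2% against 74.3%. A named enhancer was listed for 237 regions (22.6%, against 10.6% of the others). The X chromosome held 11.3% of them and 18.3% of the others. Of the 95 tested regions that the authors assigned a pattern along an embryonic axis, 41 were members. These were 12 of 19 dorsal, 16 of 37 ventral, 9 of 21 neuroectoderm and 4 of 18 anterior enhancers. Of the tested regions within 2 kb of listed genes, 9 of 25 were members for gap genes, 8 of 29 for pair-rule genes, 11 of 31 for Notch signalling and E(spl) genes and 22 of 98 for dorsoventral genes. The counts were 21 of 68 for chromatin and insulator factors, 11 of 117 for cytoplasmic ribosomal proteins, 1 of 52 for late differentiation genes (at elav) and 0 of 9 for heat shock genes. Beside these shares, 5.00% of all tested regions were members. Within 10 kb the member counts were 26 for ribosomal proteins, 3 for late differentiation genes and 4 for heat shock genes.

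In zld- embryos the most accessible regions were called lower in every window far more often than higher. A call is an adjusted p under 0.05 in the authors' deposited table, which was made with DESeq2. The OreR libraries of this comparison helped to choose the regions, so the shares called are given as a description. At 1 to 1.5 h, 47.7% of the regions were called lower and 4.7% higher, against 15.6% and 10.4% of all tested regions. At 1.5 to 2 h the shares were 27.6% lower and 2.0% higher, against 7.49% and 4.66%. At 2 to 2.5 h they were 36.4% and 2.3%, against 13.4% and 7.82%, and at 2.5 to 3 h 39.0% and 3.1%, against 17.1% and 14%. The median log2 fold change of the regions was -0.47, -0.04, -0.18 and -0.32 in these windows. In all 4 windows 236 regions (22.5%) were called lower, against 4.31% of all tested regions, and 15 higher, against 1.98%. Averaged over windows, 37.7% were called lower and 3.01% higher. When the zld- table's own mean count ranked the regions, 24.7% were called lower and 5.80% higher. The share called lower was 18.2% when a log2 change of at least 1 was also asked for. With the trend of the change with mean count subtracted, the shares called lower were 21.9%, 30.6%, 35.5% and 30.9% in order of window. The share thus fell most in the first window, and it rose in the second.

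**Figure D2:**
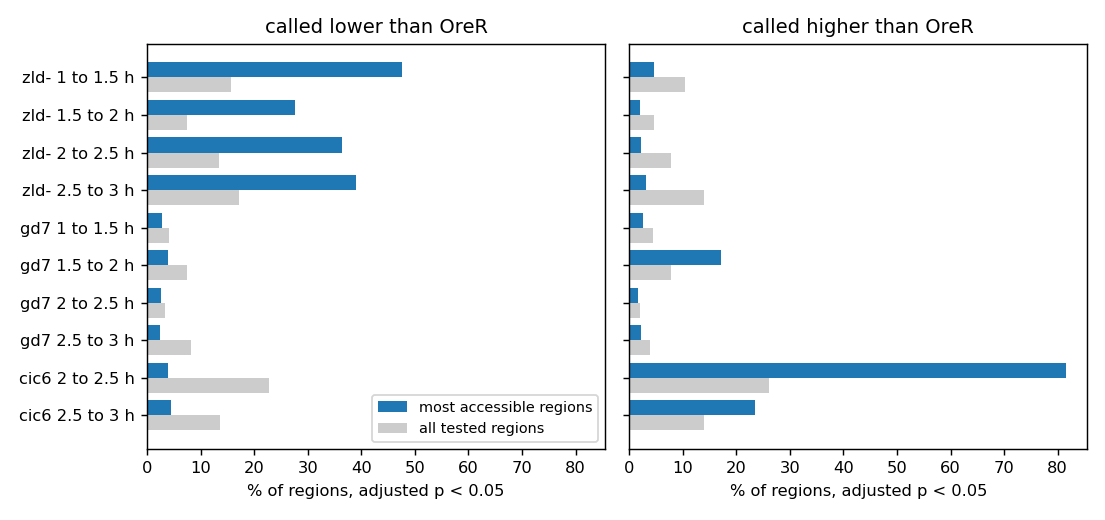
Share of the 1047 most accessible regions (blue) and of all 20935 tested regions (grey) called lower (left) or higher (right) than OreR at an adjusted p under 0.05, by genotype and window. The zld- regions lead on the left, with 47.7% at 1 to 1.5 h (21.9% once the trend with mean count is subtracted), and cic6 on the right, with 81.5% at 2 to 2.5 h (4.59% after the same step).

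The regions furthest lower in zld- embryos included several at genes that act while the embryo forms its cells. At bnk (bottleneck), an actin regulator of cellularization, log2 fold changes in the authors' deposited table were -1.57, -2.42, -3.22 and -3.12 in order of window, with standard errors of 0.28 to 0.29. At halo, which directs lipid droplet transport, they were -1.72, -2.24, -3.07 and -2.92 in the authors' deposited table. The list of cellularization genes had 4 members among 7 tested regions within 2 kb of its genes. By the gene overlapped or nearest they were named bnk, halo, Sry-alpha and CG14427, which need not be the listed gene. Of these 4, 2 were called lower at 1 to 1.5 h and all 4 in each later window, with medians of -1.03, -1.78, -2.53 and -2.40. At Sry-alpha, which organises cellularization actin, the authors' deposited table gave -0.49, which was not called, then -1.31, -2.0 and -1.89. Regions at dunk, which acts on myosin during cellularization, at Nrt, a cell adhesion protein, and at Shrm, an apical actomyosin regulator, were called lower in all 4 windows. Their changes at 2 to 2.5 h were -2.69, -2.54 and -2.32 in the authors' deposited table.

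The peak lists show the bnk region library by library. At 2.5 to 3 h its strongest peak exceeded 86.6%, 91.1% and 91.3% of the peaks in the 3 OreR lists by the authors' fold enrichment, and 27.0%, 11.7% and 12.1% in the zld- lists. The groups did not overlap. At 1 to 1.5 h it exceeded 64.7%, 70.2% and 71.1% in OreR, while among zld- libraries only replicate 2 listed a peak there, at 34.5%. The list of zld- replicate 3 held only 6831 peaks in that window, and gd7 replicate 3 listed no peak at bnk either. In cic6 libraries at 2.5 to 3 h the values were 88.3%, 88.9% and 80.4%, close to OreR.

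**Figure D3:**
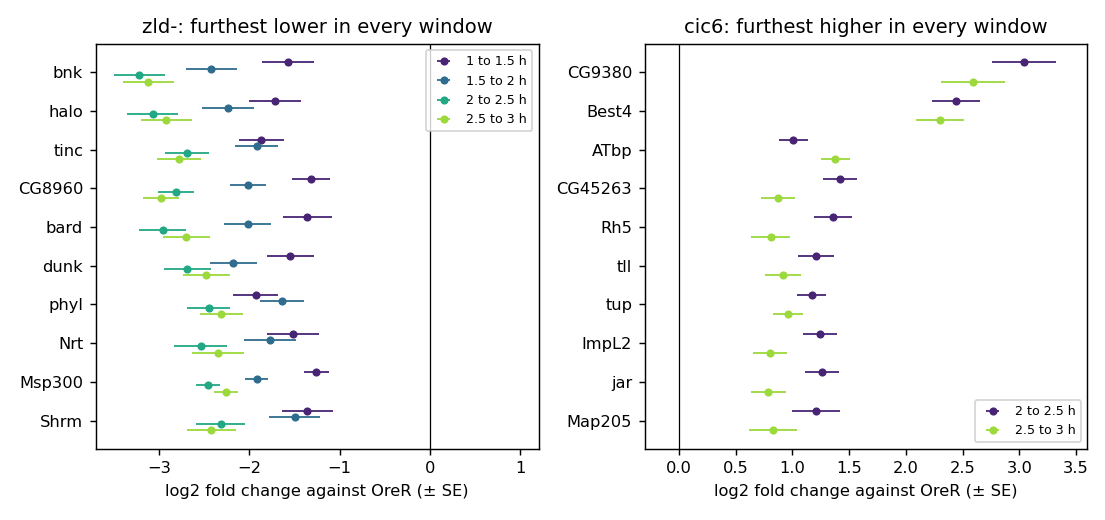
Log2 fold change against OreR (points, ± SE from the authors' deposited tables) of the 10 regions furthest lower in zld- (left) and furthest higher in cic6 (right) among those called in every window, outside repeated and look-alike regions, 1 per nearest gene and coloured by window. The bnk region reaches -3.22 in zld- and the CG9380 region 3.04 in cic6.

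Among patterned enhancers, every call in zld- was lower. Of all members 47.7%, 27.6%, 36.4% and 39.0% were called lower in order of window. Of the 12 dorsal enhancers 6 were called lower at 1 to 1.5 h and 10 in each later window, with medians of -0.52, -0.94, -1.20 and -1.17. At tld, a protease that releases the ligand Dpp, the authors' deposited table gave -1.41, -1.61, -2.24 and -2.27. At zen, a dorsal homeobox gene, it gave -0.28, not called, then -1.30, -1.12 and -1.31 in the authors' deposited table. Of the 16 ventral enhancers 10, 7, 9 and 9 were called lower in order of window, and of the 9 neuroectoderm enhancers 5, 3, 5 and 5. At sna, the ventral repressor Snail, the authors' deposited table gave -0.94, -1.26, -1.13 and -0.89. Of the 4 anterior enhancers 1, 3, 3 and 2 were called lower.

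The remaining lists had these counts in zld-, to be read against the 47.7%, 27.6%, 36.4% and 39.0% of all members called lower and the 15.6%, 7.49%, 13.4% and 17.1% of all tested regions. Many lie near the share of the members or below it. Of 11 Notch and E(spl) regions 9, 5, 6 and 6 were called lower in order of window, and of 7 cell cycle regions 4, 4, 5 and 5. At CycE, the S-phase cyclin, a region of mean count 3807 had -1.34, -1.23, -1.44 and -1.42 in the authors' deposited table. Of 21 regions at chromatin and insulator factors 9, 2, 3 and 3 were called lower. Of 11 at ribosomal protein genes 6, 4, 4 and 5 were called lower, and of 6 at translation and protein folding genes 1 was, at 1 to 1.5 h. Of 6 cytoskeleton regions 1 was called lower, in the first window. Of 8 pair-rule regions 2, 4, 4 and 3 were called lower, of 9 gap regions 3, 4, 3 and 2, of 8 Hox regions 1, 2, 2 and 2, of 4 segment polarity regions 1 in each window and of 22 dorsoventral regions 13, 7, 13 and 15. None of these lists had a member called higher in zld-.

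Position relative to genes and the enhancer label went with different shares. Outside the repeated and look-alike regions, 387 regions at gene ends were called lower in 41.3%, 19.1%, 25.6% and 28.4% of cases in order of window. The shares were 52.2%, 31.3%, 42.6% and 44.6% for the 603 away from gene ends. Among the 236 of these with a named enhancer they were 59.3%, 39.8%, 48.7% and 48.3%, and among the 754 without one they were 44.4%, 22.4%, 32.0% and 35.1%. The difference between these sets was not tested.

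Between the first and last window the zld- difference itself changed at some regions. By a Wald test of that difference, adjusted over all tested regions and taking the windows as independent, 59 members were lower in the last window (5.6%, against 4.76% of all) and 43 higher (4.1%, against 5.44%). Both shares lie near those of all tested regions. At bnk the last window was lower by -1.55 on the log2 scale (adjusted p = 0.0028), and at CG8960 by -1.66 (adjusted p = 1.2e-06). At Rh5, which encodes an opsin, the last window was higher by 1.17 (adjusted p = 0.0067).

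In cic6 embryos the most accessible regions were mostly called higher at 2 to 2.5 h. The share was 81.5%, with 3.9% lower, against 26.2% and 22.8% of all tested regions. At 2.5 to 3 h it was 23.4% with 4.5% lower, against 14% and 13.7%. The median log2 fold change was 0.56 and 0.23. In both windows 245 regions were called higher (23.4%, against 11.8% of all) and 34 lower (3.2%, against 10.8%). The OreR libraries helped to choose the regions, so the cic6 shares are a description too. The change rose with mean count across all regions: once that trend was subtracted, an average of 4.35% of the regions were called higher and 10.0% lower, in place of 52.4% and 4.2%. That step brings the median change at a given mean count near 0 by construction, and the members lie at the top of the mean count. The balance of calls left is not fixed by it. In zld- the same step left an average of 29.7% called lower and 4.32% higher. In cic6 a log2 change of at least 1 was reached by calls of 2.39% higher and 0.955% lower. No member was called in the test of the last against the first cic6 window, although the median difference was -0.34, and 0.115% and 0.0334% of all tested regions were called lower and higher.

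The genes furthest higher in cic6 included the terminal gap gene tll (tailless), a textbook target of Capicua repression. At its P3 enhancer the authors' deposited table gave 1.21 ± 0.16 (SE) and 0.92 ± 0.16. At hkb (huckebein), the other terminal gap gene, it gave 0.92 and 0.69 in the authors' deposited table, and both were called. The furthest was a region 3778 bp from CG9380, with 3.04 and 2.59 in the authors' deposited table. At 2.5 to 3 h its peaks covered 2043, 2048 and 2049 bp in OreR and 2068, 2066 and 2066 bp in cic6. The fold enrichment of its strongest peak was 11.05, 11.37 and 14.77 in OreR and 15.24, 15.72 and 16.95 in cic6. The CG9380 region was also called higher in all 4 zld- windows, with 0.70, 1.70, 1.51 and 0.89 in the authors' deposited table. Others called in both windows were at CG45263, Rh5, ImpL2, which binds insulin-like peptides, jar, the Myosin VI gene, and tup, a homeobox gene 13158 bp from its region. Of the 9 gap regions 7 and 5 were called higher, and 1 was called lower in the last window. Of 22 dorsoventral regions 21 and 9, of 11 Notch regions 11 and 9 and of 8 pair-rule regions 8 and 0 were called higher. Of 21 chromatin factor regions 19 and 4 were called higher. These counts stand beside the 81.5% and 23.4% of the members as a whole.

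Peaks covered more of the tll region in cic6, without a higher rank in their lists. At 2.5 to 3 h peaks covered 723, 747 and 745 bp of the region in OreR and 1329, 1327 and 1339 bp in cic6, and the groups did not overlap. Its strongest peak exceeded 84.6%, 90.6% and 89.1% of each OreR list and 78.1%, 78.9% and 81.1% of each cic6 list. The hkb region went the other way in covered bases at 2.5 to 3 h. Peaks covered 1164, 1165 and 1130 bp of it in OreR and 1119, 1113 and 1125 bp in cic6.

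The regions furthest lower in cic6 included several of very high mean count outside gene bodies. A region at Adk3, an adenylate kinase gene, had -1.61 and -1.62 in the authors' deposited table. A region at chrX:23227143-23229256, 118812 bp from ATbp, had a mean count of 24476 and -1.44 and -1.42 in the authors' deposited table. Regions near CG44102, UQCR-11, CkIIalpha and CG33217, with mean counts of 15624 to 21271, had changes of -1.32, -1.29, -1.24 and -1.23 in the earlier cic6 window by the authors' deposited table.

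The bases covered by each library's own peaks gave a measure per library. Members were covered over 32.3% ± 16.5 (SD, n = 3), 47.0% ± 7.66, 52.5% ± 4.77 and 59.2% ± 0.95 of their bases in zld-, in order of window. In OreR the values were 55.5% ± 9.41, 55.9% ± 3.79, 61.1% ± 2.31 and 65.0% ± 3.74. The mean difference was -11.7 percentage points, and all 12 zld- libraries lay below the OreR mean of their window. The OreR libraries helped to choose the regions and the zld- and cic6 libraries did not, so these differences are given as a description, with no test. One zld- list at 1 to 1.5 h, replicate 3, held 6831 peaks, while the other 41 held 21324 to 58137, and without that replicate in every window the difference was -7.79 points. Coverage of all other regions fell too, and the difference between members and others changed by -5.46 points in zld-. With the regions ranked by the zld- table instead, the 2 differences were -9.16 and -2.82 points, and with peak lists cut to equal length -13.4 and -12.5 points. That cut kept 6831 peaks in each zld- and OreR list, the length of the short replicate 3 list. In cic6 members were covered over 55.0% ± 2.12 and 59.5% ± 3.37, or -5.82 points against OreR, and -5.54 points with the regions ranked by the cic6 table. That is the opposite direction to the calls on counts. Less the other regions, the cic6 difference was 1.30 points. A list's length depends on depth, which the files do not give, so no counting error was computed.

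**Figure D4:**
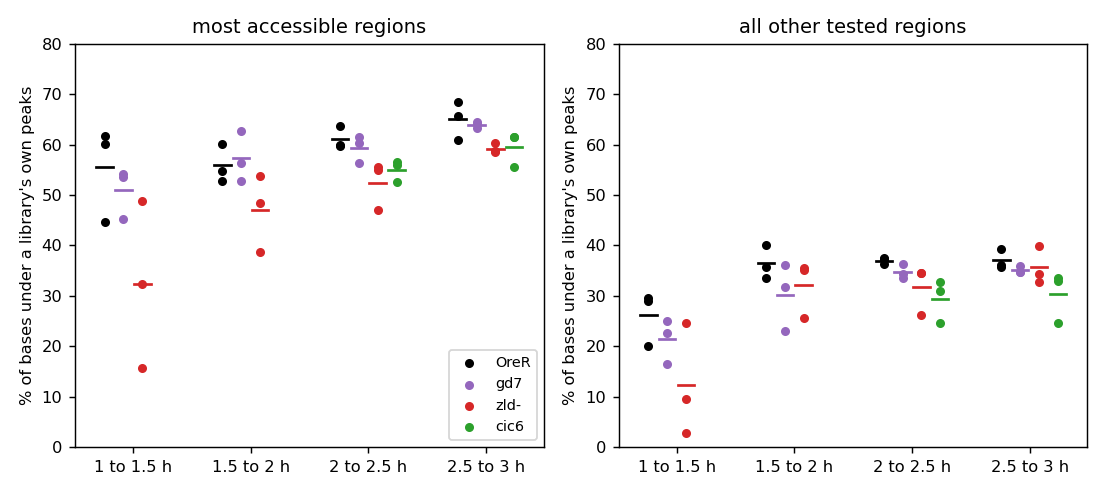
Share of bases under each library's own peaks (%), for the 1047 most accessible regions (left) and all other tested regions (right), by window. Points are single libraries and bars are group means of 3; the zld- mean on the left is 32.3% in the first window, and OreR is 55.5%.

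The gd7 libraries helped to choose the regions, so their calls are a description. At 1 to 1.5 h 2.8% were called lower and 2.7% higher, against 4.01% and 4.47% of all tested regions. At 1.5 to 2 h the shares were 3.9% and 17.1%, against 7.47% and 7.86%, and with the trend subtracted they were 8.31% and 0.573%, which turns the balance. At 2 to 2.5 h they were 2.7% and 1.6%, against 3.45% and 2.09%, and at 2.5 to 3 h 2.5% and 2.3%, against 8.19% and 3.81%. In all 4 windows 26 regions were called lower and 13 higher, against 1.96% and 0.956% of all tested regions. Of the 12 dorsal enhancers among the members 3, 3, 1 and 1 were called higher and none lower. At the tup enhancer named above the authors' deposited table gave 0.88, 0.65, 0.66 and 0.91. At pnr, a dorsal GATA factor gene, it gave 0.94, 0.71, 0.41 and 0.45 in the authors' deposited table, and the first pair was called. Of the 16 ventral enhancers none was called lower in gd7 and 2 were called higher, at 1.5 to 2 h. At sna the authors' deposited table gave -0.36, -0.43, -0.34 and -0.43, none of them called.

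Most regions called lower in every gd7 window were repeats or look-alikes. Of the 26, 24 were at the Stellate array or in a group of 20 regions whose mean counts and fold changes nearly coincide. That group of 20 was kept partly for the size of its zld- or gd7 change, so this count is a description. The other 2 of the 26 lay at Msp300 and 41040 bp from jing. At Msp300 the authors' deposited tables gave -0.70, -1.27, -0.80 and -0.94 in gd7 and -1.26, -1.92, -2.46 and -2.26 in zld-. In cic6 they gave -0.36 and -0.58 at Msp300, and both were called. The gd7, zld- and cic6 comparisons share the OreR libraries. The Stellate genes are a tandem repeat on X known in testis for silencing by small RNAs, and 4 of 5 tested regions there were members, on chrX:14048112-14061538. Their log2 fold changes in the authors' deposited tables ran from -3.44 to -2.81 in zld- and from -4.38 to -3.44 in gd7 over the windows, and from -0.34 to -0.20 in cic6. At Ste:CG33241, peaks at 2.5 to 3 h covered 1289, 1303 and 1310 bp in OreR, 705, 733 and 882 bp in gd7, 1013, 454 and 462 bp in zld- and 1305, 1288 and 1304 bp in cic6. In these covered bases the gd7 and zld- libraries lay below all OreR libraries. The fold enrichment of the strongest peak there was 2.54, 2.61 and 2.97 in OreR, 3.25, 3.17 and 2.75 in gd7 and 2.04, 2.12 and 2.67 in zld-. By that measure the gd7 and zld- values both overlapped those of OreR.

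The look-alike group of 20 lay on 5 chromosome arms, 11 of them on 2L, at genes such as CadN, cpo, Rdl, spri and stol. Its members were joined because their fold changes and mean counts differed by at most 0.15 on the log2 scale from a neighbour in the group, so their likeness is not a finding. A group was kept only if it had at least 3 regions. Its median log2 fold change also had to reach 0.9 in size in some zld- or gd7 window. The size of its changes in these genotypes is thus partly set by that choice. Mean counts ran from 4415 to 5112. In the authors' deposited tables log2 fold changes ran from -2.14 to -1.65 in zld-, from -1.13 to -0.66 in gd7 and from -0.73 to -0.27 in cic6. A second group of 4, at GEFmeso, CG32816, CG12535 and CG17684, ran from 1.24 to 1.64 in zld-, from 0.72 to 1.08 in gd7 and from 0.62 to 0.79 in cic6 in the authors' deposited tables. Whether these regions share a sequence was not tested.

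**Figure D5:**
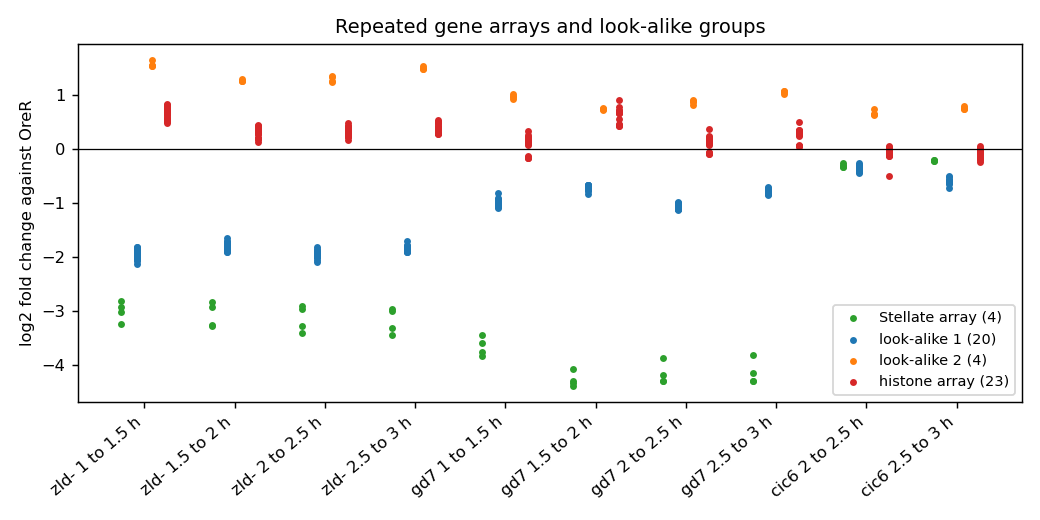
Log2 fold change against OreR of every member at the Stellate array (4), the histone array (23) and in the groups of 20 and 4 regions with nearly equal values (look-alike 1 and 2), by genotype and window. Stellate regions lie between -4.38 and -2.81 in gd7 and zld-, and between -0.34 and -0.20 in cic6.

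Of the 23 histone regions 18 were called higher in zld- at 1 to 1.5 h, 3 at 2.5 to 3 h and none in between. In gd7 18 were called higher at 1.5 to 2 h and none in the other windows, and in cic6 1 was called lower. Of all tested regions 10.4% were called higher in that first zld- window and 7.86% in that gd7 window. Of all members 4.7% and 17.1% were. With the trend with mean count subtracted, the shares of all members called higher were 6.97% and 0.573%. In the authors' deposited tables their log2 fold changes ran from 0.13 to 0.83 in zld-, from -0.17 to 0.90 in gd7 and from -0.51 to 0.06 in cic6. Called higher in every window of all 3 genotypes were 6 members. They were the second look-alike group of 4, a region named after msopa, and a region 304 bp from Best4, a bestrophin channel gene. The share of all tested regions called so was not computed. The gd7 libraries helped to choose all 6, so a rise in gd7 helped each to pass the threshold. Their gd7 calls are thus partly set by that choice. The msopa region had a mean count of 2768, close to the lowest of any member, 2708. The look-alike group of 4 was also kept partly for the size of its changes. The mean count of the Best4 region was 3174 in the gd7 table, 1101 in the zld- table and 1622 in the cic6 table. The Best4 region thus passed the threshold through the gd7 libraries, and its gd7 difference is set by that choice. The authors' deposited tables gave 2.56, 1.81, 2.21 and 1.99 in zld-, 4.06, 3.56, 3.41 and 3.52 in gd7, and 2.44 and 2.3 in cic6. At 1.5 to 2 h its peaks covered 238, 386 and 0 bp in the OreR libraries, 667, 712 and 598 bp in zld- and 1947, 1674 and 1115 bp in gd7. All 3 comparisons share the OreR libraries.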

How the data were processed

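Each library's group and number were taken from its title. Per the submitters' processing notes the tools were Bowtie2 2.3.5.1, Picard 2.23.8, MACS2 2.2.7.1 and DESeq2, with the dm6 build; the settings used with them are not known here. The authors deposited a peak list per library, with a score, a fold enrichment (a ratio), −log10 of p and q values and a summit. The authors also deposited 3 tables of comparisons with OreR, with a mean count (a normalised signal), a log2 fold change with its standard error, an adjusted p-value and the p-value before adjustment. They hold no counts per library, so read depth and counting error are not given here. Calls use the deposited adjusted p under 0.05.

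The regions, lists and groups were chosen with earlier results of these data known. Regions were named after the protein-coding gene they overlap or lie nearest to in RefSeq (Release 6, no strand). Named regions were the 10 highest, 3 on each side of the threshold, the 6 furthest lower and higher per genotype among those called in every window, and the 2 to 4 highest per gene list; the furthest outside repeats and the other patterned enhancers were added after their values were seen. Differences between windows were tested by a Wald test with Benjamini-Hochberg adjustment, tried on simulated data first. A planned exact permutation test of covered bases is not reported, because the OreR libraries helped to choose the regions. Alternatives were centring, subtracting the trend with mean count, a size of 1, other ranks and shares, 1 region per run, peak thresholds, list lengths and replicates left out. Python 3.11.15, pandas 2.3.3 and scipy 1.17.1 were used.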

Additional observations from a re-analysis of the deposited data

Results flagged for a closer look

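At 5 of the regions furthest lower in zld- the difference from OreR itself changed between 1 to 1.5 h and 2.5 to 3 h, by a Wald test adjusted over all tested regions. The log2 fold change of the last window less the first was -1.20 at halo, -0.99 at Msp300, a nesprin that anchors nuclei, -1.66 at CG8960, -1.34 at bard and -1.55 at bnk. The adjusted p ran from 1.2e-06 at CG8960 to 0.037 at halo. With the second window in place of the first, the number of members called lower fell from 59 to 16. The 59 were 5.6% of the members, near the 4.76% of all tested regions, and for the 16 the share of all was not computed. One zld- list of the first window held only 6831 peaks. The trend with mean count averaged -0.34 at the members in the first window and -0.17 in the last. Whether these bear on the changes at the named regions was not tested.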

How the results depend on the processing

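Shares of members called are averages over windows. With a log2 change of at least 1 they were 18.2% lower and 1.03% higher in zld-, 1.15% and 0.884% in gd7, and 0.955% and 2.39% in cic6. Ranked by the zld- table they were 24.7% lower and 5.80% higher in zld-. With the trend subtracted, 1.48% were higher in gd7, and 10.0% lower and 4.35% higher in cic6. In the top 1%, 10.6% were lower in gd7 and 13.6% in cic6. Without the repeated and look-alike regions, chosen after the data were seen and in part by their fold changes, 0.707% were lower in gd7 and 2.68% in cic6. From the second to the last zld- window 16 members were lower and 2 higher, against 59 and 43 from the first. The shares of all tested regions from the second window were not computed. With lists of equal length the cic6 difference in covered bases less other regions was 1.64 points and the zld- one -12.5. These cuts kept 42055 peaks per list for cic6 and 6831 for zld-. With members ranked by the zld- or cic6 table, added after the data were seen, the differences less other regions were -2.82 and 1.59 points. Leaving out 1 replicate gave -14.2 to -7.79 points in zld- and -7.18 to -4.32 in cic6, and less the other regions -6.01 to -4.64 and 0.12 to 2.12. With the replicate block these 4 values were -11.7, -5.46, -5.82 and 1.30, the same as without it; same-numbered libraries had correlated deviations of -0.08 to 0.35, so the numbers were not taken as pairs. The causes of these shifts were not tested. Unknown depth limits the peak measures.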

Other observations

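Members at small RNA genes were few but made up more of those tested regions than the 5.00% of all tested regions, apart from microRNA genes, which lay near it. They were 7 of the 19 tested regions that overlap a small nuclear RNA gene, 20 of 117 at transfer RNA genes, 11 of 57 at small nucleolar RNA genes and 7 of 87 at microRNA genes. More than 20 kb from any protein-coding gene lay 53 members. In zld- 20, 6, 9 and 13 of the 53 were called higher in order of window and 5, 8, 7 and 19 lower. In cic6 12 and 9 of the 53 were called higher and 22 and 18 lower. Of all tested regions 15.6%, 7.49%, 13.4% and 17.1% were called lower in zld-, and 22.8% and 13.7% in cic6. A part of the 53 was 23 members on X outside the ribosomal RNA genes. Of these, 16, 5, 7 and 11 were called higher in zld- in order of window and 0, 1, 0 and 4 lower, against 10.4%, 4.66%, 7.82% and 14% of all tested regions called higher. In cic6 9 were called higher in each window, and 4 and 1 lower, against 26.2% and 14% of all tested regions called higher and 81.5% and 23.4% of the members.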
